A study of Mus musculus with 4 samples.

Results

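Heme, the iron porphyrin of hemoglobin and of the cytochromes, is built by a chain of enzymes that starts and ends in mitochondria. The transcripts of 8 of these enzymes, encoded by Alas1, Alas2, Alad, Uros, Urod, Cpox, Ppox and Fech, were followed here between d2 and d4 of mouse embryonic stem cell (mESC) differentiation. They were chosen by name as enzymes of the pathway, do not cover every step of it, and are 8 of the 55487 genes in the count table. The cells were E14-Tg2a mESCs (ES-E14TG2a), an established mouse embryonic stem cell line, of WT genotype, put through a cardiogenic differentiation with 2 libraries per day from independent differentiation experiments. At d2, the cells had spent 48 h as embryoid bodies in serum-free medium. At d4, such embryoid bodies had been dissociated and reaggregated for another 40 h with human Activin A (8 ng/ml), BMP4 (0.5 ng/ml) and VEGF (5 ng/ml). Day, growth factors and reaggregation thus changed together and cannot be told apart. All libraries came from whole unsorted cultures, in which fewer cells of a type and less RNA per cell cannot be told apart.

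The pathway is usually described in 3 stretches. In the mitochondrial matrix, ALA synthase joins glycine to succinyl-CoA to give 5-aminolevulinic acid (ALA), the committed and rate-limiting step. Of the 2 ALA synthase genes, Alas1 is used in most tissues and Alas2, on the X chromosome, in erythroid cells, where hemoglobin needs large amounts of heme. In the cytosol, Alad (ALA dehydratase) condenses ALA to porphobilinogen, Uros (uroporphyrinogen III synthase) closes the ring into its natural isomer, and Urod (uroporphyrinogen decarboxylase) trims its side chains. Cpox (coproporphyrinogen oxidase), Ppox (protoporphyrinogen oxidase) and Fech (ferrochelatase, which inserts the iron) complete heme in mitochondria. In erythroid cells, transcription factors of the GATA family, which bind variants of the letters GATA, and KLF1, which binds CACCC boxes, are known to act on genes of this pathway, and NRF1 is a known activator of Alas1.

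The sequence upstream of the start is shown for 3 enzyme genes whose transcripts were higher at d4 and for Urod, whose level was not. These stretches let matches to GATA motifs be seen beside the measurements. They are a choice and not a comparison of called with uncalled genes. The windows of Alas1, Alad and Ppox and the upstream window of Uros, which held no match, are not shown, nor is Fech. The 250 bases before each RefSeq start (GRCm38.p6) were searched on both strands for the motif AGATAA, the motif AGATAG, the motif TGATAA and the motif TGATAG, and matches stand in capitals. Each stretch is given 5′ to 3′ on the strand of its gene and stops where annotated exon begins.
Alas2 (chrX:150547167-150547374, plus strand): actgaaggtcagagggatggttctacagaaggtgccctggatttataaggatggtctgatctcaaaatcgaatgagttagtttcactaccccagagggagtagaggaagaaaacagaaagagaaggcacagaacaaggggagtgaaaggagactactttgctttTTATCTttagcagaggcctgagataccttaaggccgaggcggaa
Cpox (chr16:58669958-58670207, plus strand): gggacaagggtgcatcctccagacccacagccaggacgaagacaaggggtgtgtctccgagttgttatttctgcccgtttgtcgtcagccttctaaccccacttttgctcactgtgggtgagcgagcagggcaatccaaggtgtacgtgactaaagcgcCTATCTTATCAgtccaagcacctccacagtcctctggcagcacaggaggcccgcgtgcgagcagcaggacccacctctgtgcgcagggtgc
Uros, downstream start (chr7:133702617-133702750, minus strand): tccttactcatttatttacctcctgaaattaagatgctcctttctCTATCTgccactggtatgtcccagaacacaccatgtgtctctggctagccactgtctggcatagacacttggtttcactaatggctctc
Urod (chr4:116994414-116994663, minus strand): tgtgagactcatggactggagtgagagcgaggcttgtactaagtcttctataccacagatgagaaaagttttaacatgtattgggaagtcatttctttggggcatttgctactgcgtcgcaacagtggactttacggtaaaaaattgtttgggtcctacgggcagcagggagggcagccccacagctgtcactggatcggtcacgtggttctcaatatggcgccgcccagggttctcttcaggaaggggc
The Alas2 stretch held 1 match, TTATCT, which lies 86 to 81 bases before the start. In Cpox, CTATCT (91 to 86 bases before the start) and TTATCA (86 to 81) share 1 base and read as a single run. The downstream of the 2 Uros starts had a match 205 to 200 bases before it, shown in capitals, and another 68 to 63 bases before it, outside the printed stretch. The Urod window held none.

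RefSeq promoters of 7 of the 8 genes were searched, and Fech was left out of the search. They gave 10 windows, since Alas1, Alad and Uros had 2 each. A GATA motif of those searched occurred in 3 of the 10, those just described, and in 26.5% of 32851 mouse promoter windows of this length. At least 2 matches, as in Cpox and the downstream Uros window, were found in 6.4% of all windows. For the NRF1 consensus palindrome, searched on both strands, 2 of the 10 windows matched, 1 of Alas1 and the upstream window of Uros, against 3.74% of all windows. The pattern CCNCNCCC, meant to cover CACCC boxes, occurred on either strand in 6 of the 10 windows and in 45.9% of all windows. It also fits strings without the letters CACCC. All its matches in the Alad windows and the upstream Uros window were such strings. The 2 Alad windows overlap and share matches of this pattern, and the 2 Alas1 windows overlap in part. The 10 windows are therefore not all separate sequences. Alas2 had 4 matches of CCNCNCCC, which overlap each other in part and lie 42 to 19 bases before the RefSeq start. The match nearest the start lacks the letters CACCC. A match is a string of letters, and no binding was measured in these windows here. The other 7 windows, those of Alas1, Alad, Urod and Ppox and the upstream window of the called gene Uros, held none of the GATA motifs searched. These counts do not cover the called gene Fech, which was not searched. The share of windows with a GATA motif of those searched was near that of all promoters.

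Sequencing gave 11397439 to 16851485 counts per library, at which 3 counts correspond to 0.177 to 0.254 CPM (counts scaled to a common library total). CPM here are also scaled by TMM factors (0.94 to 1.038), which correct for differences in RNA composition. The labels were checked with marker genes. Pluripotency markers were high at d2, with a summed 1260 and 991 CPM against 20.3 and 22.2 CPM at d4, and 5 of 6 fell. Endothelial markers summed to 11.0 and 10.2 CPM at d2 and 1100 and 843 CPM at d4, and 6 of 6 rose. Of these, Cdh5, Tie1 and Erg had d2 means under the 0.5 CPM filter. Kdr, with 8 and 9 counts at d2 (a mean of 0.669 CPM), was not far enough above it to pass. These genes were tested only because of their d4 counts. They could only be higher, as Zfp42, a pluripotency marker with a mean of 0.359 CPM at d4, could only be lower. The check thus rests on the summed values and not on these numbers of genes. The test across the 14932 genes with enough counts was edgeR's quasi-likelihood test, with a Benjamini-Hochberg adjusted p under 0.01 taken as a call. It called 1933 genes (12.9%) higher and 1694 (11.3%) lower at d4, and the median log2 fold change of all tested genes was -0.027.

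All 8 heme enzyme genes were tested, and 4 of them, Alas2, Uros, Cpox and Fech, were higher at d4. Alas2 was tested only because of its d4 counts and could therefore only be higher. The counts and the median of the 8 given here include it. Of the 8, 0 were lower by edgeR, by DESeq2 or by limma voom, and Alas1, Alad, Urod and Ppox did not pass. At an unadjusted edgeR p under 0.05, 6 of the 8 were higher, the 4 called ones with Alad and Ppox, and 0 lower, against 24.6% higher and 22.6% lower of all tested genes. The median log2 fold change of the 8 was 0.99. For 7 of the 8, all but Urod, both d4 libraries lay above both d2 libraries, which was true of 35.8% of all tested genes. The 4 calls of edgeR rest on both d2 libraries: without d2 replicate 1 or without d2 replicate 2, edgeR called 0 of the 8 genes, as it called 0 of all 14932, although 6343 and 6012 genes then had an unadjusted p under 0.05. DESeq2 called 2 and 3 of the 8 in these settings, Alas2 and Uros among them in both. Gene by gene, the values follow in the order of the pathway.

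**Figure D1:**
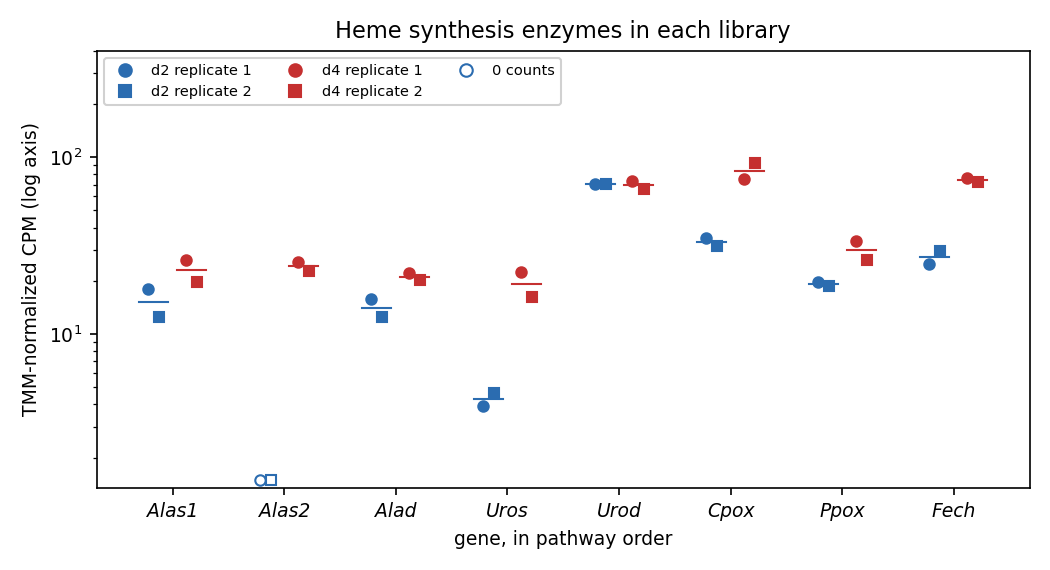
TMM-normalized CPM (log axis) of the 8 heme synthesis enzyme genes in each of the 4 libraries, in pathway order, with d2 in blue, d4 in red and a short line at each day's mean. Open symbols at the bottom edge mark 0 counts of Alas2 in both d2 libraries. Both red points lie above both blue points for every gene but Urod.

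ALA synthase is the entry to the pathway, and its 2 genes differed in what was measured. Alas2 (ENSMUSG00000025270.13, chrX:150547375-150570638), the erythroid form, had 0 counts in both d2 libraries, while the d4 libraries held 302 and 388. These are 25.6 and 22.8 CPM at d4, a mean of 24.2 ± 1.93 CPM (SD, n = 2). Both d4 libraries were far above the level that 0 counts allow at d2. Against a floor of 3 counts per d2 library, Alas2 was at least 102-fold higher at d4 (edgeR adjusted p = 9.85e-05). At this depth, Alas2 transcripts were not detectable at d2.

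Alas1 (ENSMUSG00000032786.16, chr9:106233455-106248654), the form used in most tissues, was present on both days. It had 18.0 and 12.5 CPM at d2 and 26.2 and 19.6 CPM at d4. The d4 libraries were the higher ones, but the lower d4 library lay close to the higher d2 library. The log2 fold change was 0.59 ± 0.28 (SE, edgeR adjusted p = 0.145) with a 95% interval of -0.08 to 1.25, so that Alas1 did not pass the test.

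Within a library, the share of ALA synthase reads that came from Alas2 needs no scaling between libraries. It was 0 of 220 reads and 0 of 164 reads at d2, for which the exact 95% binomial interval reaches 1.66% and 2.22% (3 counts of the total would be 1.36% and 1.83%). At d4 it was 302 of 611 reads (49.4%, exact 95% binomial interval 45.4 to 53.5%) and 388 of 721 reads (53.8%, 50.1 to 57.5%). These intervals cover counting error only. Thus about as many reads came from Alas2 as from Alas1 at d4, and none at d2. Per kilobase of exon, which adjusts for the longer Alas1 exons (6174 bp against 2403 bp), Alas2 made up 71.5% and 75.0% of the ALA synthase level at d4, a mean of 73.2% ± 2.43 (SD, n = 2). With the longest transcript as the length, these shares were 62.0% and 66.0%. An exact two-sided permutation test of the share gave p = 0.333, the smallest value that 2 against 2 libraries allow. The summed ALA synthase level per kilobase of exon went from 2.91 and 2.02 CPM at d2 to 14.9 and 12.7 at d4. The ratio of means was 5.59, and it too depends on the length used.

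The cytosolic enzymes differed widely among themselves. Uros (ENSMUSG00000030979.13, chr7:133686243-133710072), which forms the uroporphyrinogen III ring, was read 48 and 61 times at d2 against 263 and 273 times at d4. In normalized terms it went from 3.93 and 4.63 CPM to 22.3 and 16.1 CPM, with no overlap between days. It was 4.46-fold higher at d4 (95% interval 2.79 to 7.14, edgeR adjusted p = 0.00128), which was the largest fold among the 7 enzymes detected on both days. The 2 d4 libraries differed more from each other (19.2 ± 4.38 CPM, SD, n = 2) than the 2 d2 libraries did (4.28 ± 0.5 CPM).

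Alad (ENSMUSG00000028393.10, chr4:62509169-62519918), which makes porphobilinogen, had 15.7 and 12.5 CPM at d2 and 22.1 and 20.1 CPM at d4. The days did not overlap, yet the log2 fold change of 0.58 ± 0.24 (SE) did not pass (edgeR adjusted p = 0.0954). Urod (ENSMUSG00000028684.14, chr4:116989965-116994413), the decarboxylase, had 70.9 and 70.5 CPM at d2 and 73.6 and 66.2 CPM at d4. It was the only one of the 8 whose days overlapped, with the d2 libraries between the d4 libraries. Its log2 fold change was -0.02 ± 0.19 (SE, edgeR adjusted p = 0.957), and the 95% interval of its fold was 0.722 to 1.35, which ended below the intervals of Uros, Cpox and Fech. The difference between Urod and those genes was not itself tested.

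The last steps return to mitochondria. Cpox (ENSMUSG00000022742.6, chr16:58670292-58717636), which makes protoporphyrinogen, was read 427 and 416 times at d2 against 890 and 1573 times at d4. Its level went from 34.9 and 31.6 CPM to 75.3 and 92.5 CPM, and each d4 library was clearly above both d2 libraries. The fold was 2.52 (95% interval 1.78 to 3.58, edgeR adjusted p = 0.00283). Of the 4 called genes, Cpox was called least often when a library was left out: DESeq2 called it only without d4 replicate 1, with adjusted p-values of 0.0119 to 0.0508 in the other 3 settings.

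Ppox (ENSMUSG00000062729.11, chr1:171275990-171281186), which oxidizes protoporphyrinogen to protoporphyrin, had 19.7 and 18.6 CPM at d2 and 33.8 and 26.1 CPM at d4. Both d4 libraries were above d2, with a log2 fold change of 0.64 ± 0.23 (SE) that did not pass (edgeR adjusted p = 0.0658). Fech (ENSMUSG00000024588.9, chr18:64452914-64490251), the enzyme that inserts ferrous iron, had 24.8 and 29.6 CPM at d2 and 76.5 and 72.1 CPM at d4. Its libraries lay close together within each day (27.2 ± 3.42 and 74.3 ± 3.14 CPM, SD, n = 2) and far apart between days. Fech was 2.73-fold higher at d4 (95% interval 1.94 to 3.85, edgeR adjusted p = 0.00185). The called genes thus stood at the first step, in the middle and at the last step of the chain.

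**Figure D2:**
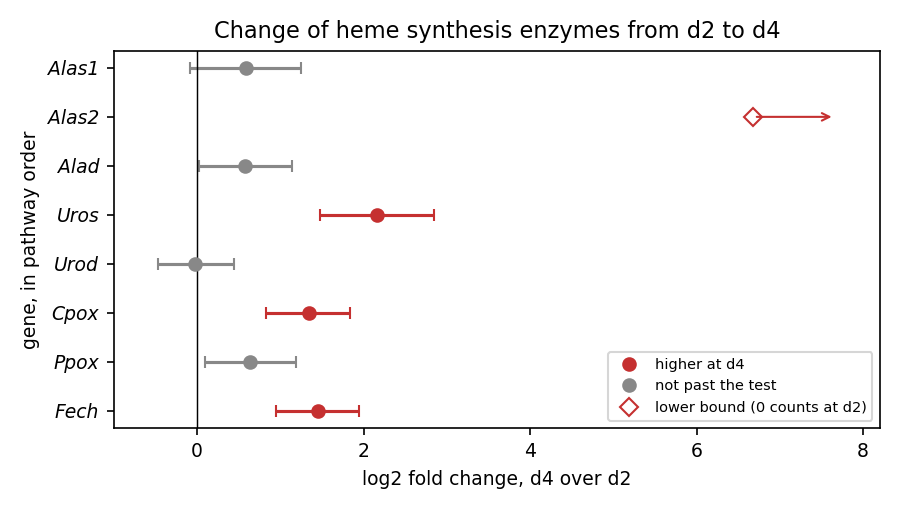
Log2 fold change, d4 over d2, of each heme synthesis enzyme gene from edgeR, with bars for the 95% interval and red for genes past the test. The open diamond of Alas2 is the lower bound of 102-fold against a floor of 3 counts, with an arrow toward larger values. Uros, Cpox and Fech lie right of Alas1, Alad and Ppox, and the interval of Urod spans 0.

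Levels of different enzymes can be compared only per length, and CPM were therefore divided by the kilobases of merged exon of each gene. At d2, the order by mean level per kilobase was Urod (27.3 ± 0.119, SD, n = 2), Alad (7.52 ± 1.23), Cpox (4.99 ± 0.354), Ppox (4.24 ± 0.173), Alas1 (2.47 ± 0.634), Fech (1.97 ± 0.247), Uros (1.2 ± 0.14) and Alas2 (0). Urod transcripts were thus the most abundant by a wide margin, and only the neighbours Alas1 and Fech overlapped between libraries. At d4, the order was Urod (27.0 ± 2.02), Cpox (12.6 ± 1.83), Alad (11.3 ± 0.766), Alas2 (10.1 ± 0.804), Ppox (6.63 ± 1.2), Fech (5.37 ± 0.227), Uros (5.36 ± 1.23) and Alas1 (3.7 ± 0.751). Cpox overlapped with Alad there, and Uros with both Fech and Ppox. Alas2 moved from the bottom to the fourth place, while Alas1 was the lowest of the 8 at d4.

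The order depended on the length used. With the longest transcript in place of merged exons, Urod was first and Alas1 last at d4 as before. The last place was narrow, with mean levels of 6.73 for Alas1 and 6.79 for Ppox. Cpox ranked above Alad and Alas1 above Ppox at d2, and Ppox fell behind Fech and Uros at d4. By merged exons, the share of Urod in the summed level of the 8 went from 53.5% and 56.5% at d2 to 33.2% and 32.6% at d4. Alas2 took 12.4% and 12.1% at d4. Uros made up 2.15% and 2.69% at d2 and 7.27% and 5.73% at d4. The summed level of the 8, also by merged exons, was 51.2 and 48.2 CPM per kilobase at d2 and 85.6 and 78.3 at d4. The ratio of means was 1.65, and 1.45 without Alas2. The gain in the sum was therefore not that of Alas2 alone.

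**Figure D3:**
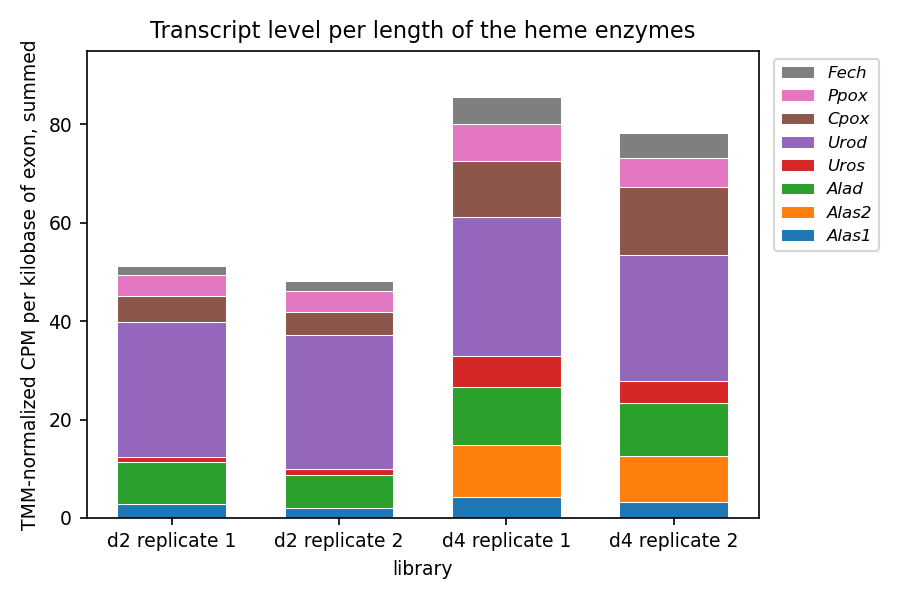
Stacked TMM-normalized CPM per kilobase of merged exon for the 8 heme synthesis enzyme genes, one bar per library. The bars reach 51.2 and 48.2 at d2 and 85.6 and 78.3 at d4, with Urod the largest piece in each and Alas2 visible only in the d4 bars.

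Genes around the enzymes were counted in 6 lists, and 8 of their 49 tested genes (16.3%) were higher at d4 and 0 lower, against 12.9% and 11.3% of all tested genes. The share of higher genes was thus near that of all genes. The 8 include Klf1, which was tested only because of its d4 counts and could only be higher. At an unadjusted p under 0.05, edgeR had 14 of the 49 higher (28.6%, against 24.6% of all tested genes) and 4 lower (8.16%, against 22.6%), and DESeq2 and limma voom, at the same adjusted threshold, also called 0 lower. For substrate supply, 2 of 6 rose and 4 did not pass, with a median log2 fold change of 0.07. Shmt2, the mitochondrial enzyme that makes glycine from serine, had 53.9 and 34.2 CPM at d2 and 238 and 201 CPM at d4, a log2 fold change of 2.31 ± 0.27 (SE, edgeR adjusted p = 0.000814). Slc6a9, the glycine transporter GLYT1 of the cell membrane, went from 5.56 and 3.95 CPM to 35.4 and 25.1 CPM (log2 fold change 2.67 ± 0.30, SE, edgeR adjusted p = 0.000685). Slc25a38, which carries glycine into mitochondria, had lower values at d4, 16.9 and 14.2 CPM against 26.2 and 20.7 CPM, without passing (edgeR adjusted p = 0.097). Sucla2, a subunit of succinyl-CoA synthetase, did not pass either (edgeR adjusted p = 0.519).

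Of the 9 tested genes for mitochondrial transport and partners of the pathway, 2 (22.2%) rose, against 12.9% of all tested genes. The other 7 did not pass, and the median log2 fold change of the list was 0.25. Both that rose are mitochondrial proteins known from erythroid cells. Abcb10, an inner membrane transporter, had 23.0 and 24.1 CPM at d2 and 167 and 156 CPM at d4 (log2 fold change 2.78 ± 0.20, SE, edgeR adjusted p = 0.000127). Fam210b went from 7.61 and 7.21 CPM to 100 and 83.8 CPM (log2 fold change 3.63 ± 0.23, SE, edgeR adjusted p = 9.02e-05). Abcb6, a porphyrin transporter (log2 fold change 0.92, adjusted p = 0.0461), and Tmem14c, a protoporphyrinogen transporter (0.46, adjusted p = 0.178), did not pass.

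For iron supply, 1 of 12 tested genes (8.33%) rose, against 12.9% of all tested genes, and the median log2 fold change was 0.24. The gene that rose was Slc25a37, which encodes mitoferrin 1, the importer that brings iron to ferrochelatase in erythroid cells. Its libraries had 32.1 and 31.8 CPM at d2 and 84.5 and 72.9 CPM at d4 (log2 fold change 1.30 ± 0.20, SE, edgeR adjusted p = 0.00253). The ferritin heavy chain gene Fth1 (log2 fold change 0.78, adjusted p = 0.0296), the light chain gene Ftl1 (-0.63, adjusted p = 0.06) and Steap3, an iron reductase (-1.15, adjusted p = 0.0746), did not pass. Heme breakdown and movement gave 0 calls among 9 genes by edgeR, DESeq2 and limma voom, with a median log2 fold change of 0.13. At an unadjusted edgeR p under 0.05, 1 gene (11.1%) was higher, against 24.6% of all tested genes. The smallest adjusted p-values there were those of Hmox2, a heme oxygenase (log2 fold change 0.66, adjusted p = 0.037), Abcg2, an exporter (0.46, adjusted p = 0.186), Flvcr1 (-0.41, adjusted p = 0.231) and the biliverdin reductase gene Blvrb (-0.34, adjusted p = 0.257).

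Heme use in mitochondria, a list that also holds the peroxisomal heme enzyme catalase (Cat), gave 0 calls among 6 genes by edgeR and limma voom and 1 by DESeq2, with a median log2 fold change of -0.19. At an unadjusted edgeR p under 0.05, 2 of the 6 were higher and 1 lower, against 24.6% and 22.6% of all tested genes. Cat (0.76, adjusted p = 0.0172), the cytochrome c gene Cycs (-0.55, adjusted p = 0.062), Cox15, a heme A synthase (0.56, adjusted p = 0.068), and the cytochrome c1 gene Cyc1 (-0.35, adjusted p = 0.215) came nearest. Among 7 tested regulators of heme synthesis, 3 (42.9%) rose, against 12.9% of all tested genes. The median log2 fold change of these regulators was 0.23, and Ppargc1a had too few counts to be tested. The 3 that rose were the erythroid factors Gata1 and Klf1 and the erythropoietin receptor gene Epor. Of these, Klf1 had a mean of 0.318 CPM at d2, under the 0.5 CPM filter, and was tested only because of its d4 counts. Klf1 could therefore only be higher. Gata1 had 1.47 and 0.835 CPM at d2 and 36.0 and 34.7 CPM at d4 (log2 fold change 4.93 ± 0.33, SE, edgeR adjusted p = 0.000104). Klf1 had 0.409 and 0.228 CPM at d2 and 7.28 and 7.12 CPM at d4 (edgeR adjusted p = 0.000271), and Epor 4.66 and 4.10 CPM at d2 and 17.1 and 14.2 CPM at d4 (edgeR adjusted p = 0.00178). Nrf1, the activator of Alas1 named above, did not pass (log2 fold change -0.27, adjusted p = 0.308).

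**Figure D4:**
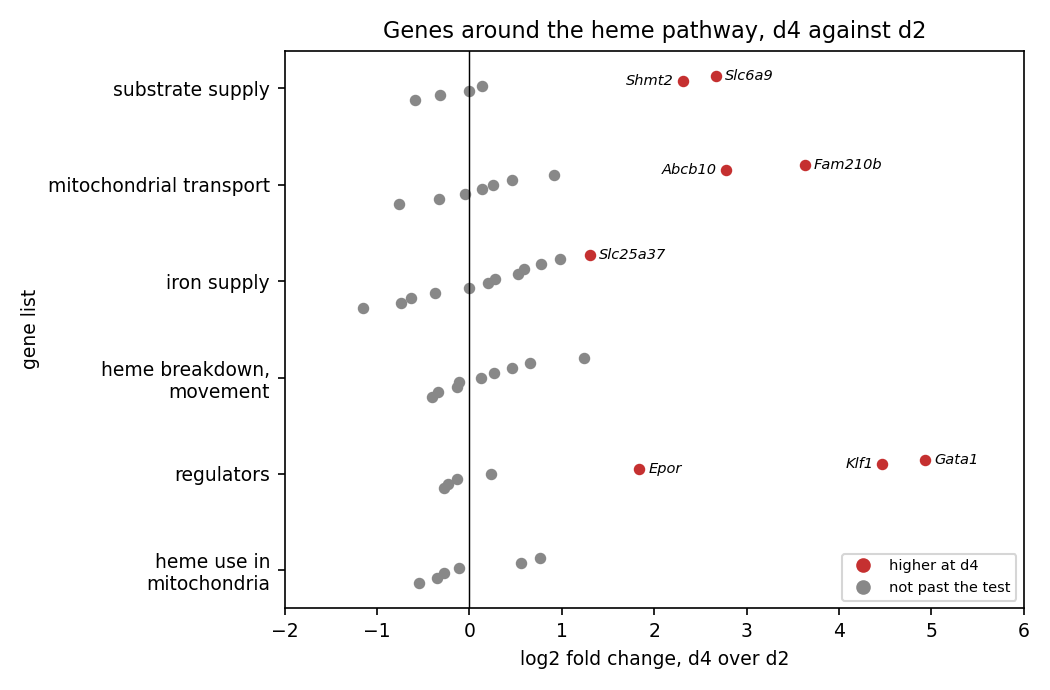
Log2 fold change, d4 over d2, of each tested gene in 6 lists around the heme pathway, one row per list and one point per gene, with the vertical offset within a row only separating points. Red points, each with its symbol, are the 8 genes higher at d4, and grey points did not pass the test.

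Like the endothelial markers above, markers of primitive erythroid cells had a higher sum at d4. Of the 12 such markers reported here, 9 were tested and 9 rose. Of these 9, 7 had a mean under 0.5 CPM at d2 and were tested only because of their d4 counts, so that they could only be higher, and their count is no measure of the list. The 12 summed to 7.69 and 6.76 CPM at d2 against 435 and 290 CPM at d4. These values do not cover the whole list of erythroid markers. The markers Gata1, Klf1 and Epor are also in the list of regulators. The embryonic globin gene Hbb-bh1 had 0.164 and 0.607 CPM at d2 and 307 and 180 CPM at d4. Rhag, Slc4a1 and Ermap, genes of later red cell membrane proteins, had at most 7 counts in any library. The part of erythroid cells in the heme enzyme values was not tested.

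Markers of other cell types in which heme metabolism is prominent were low in these libraries. Of 5 macrophage markers, Ptprc, Adgre1 and Fcgr1 had 0 counts throughout, and the list summed to 2.81 to 3.52 CPM at d2 and 3.59 to 4.65 CPM at d4, nearly all of it Cd68, which did not pass. Of 6 markers of liver-type endoderm, Alb had 0 counts throughout, and the list summed to 0.607 to 0.654 CPM at d2 and 2.0 to 4.23 CPM at d4. Hnf4a, the 1 tested gene of that list, had 2 and 0 counts at d2 and 18 and 13 counts at d4 and did not pass (edgeR adjusted p = 0.0202). Ttr, which was not tested, had 0 counts in both d2 libraries and 10 and 7 at d4. The part of such cells in the heme enzyme values was not tested.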

How the data were processed

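The deposited values are raw counts per gene, made by the authors from paired-end, strand-specific reads of 75 bp: trimming used cutadapt (v2.9), STAR (v2.6.0a) aligned the reads to mm10/GRCm38, and featureCounts (Rsubread v2.0.1) counted them, without reads that map to several places. For the annotation, the methods name a GENCODE (M10) and an Ensembl release. Of the 55487 gene IDs, 55227 matched GENCODE M21, which gave symbols, positions and exon lengths, and 0 value columns were left unmapped. The filter kept genes above 0.5 CPM in d2 or d4 by a proportion test (one-sided, adjusted p under 0.05). The 14932 kept genes were fitted with edgeR 4.0.16 (R 4.3.3; TMM, glmQLFit, glmQLFTest, a model with day alone, two-sided tests), with p-values adjusted by Benjamini-Hochberg over all of them. Fits were tested on simulated data. Alternatives were other scaling factors and filters, DESeq2 1.42.0, limma voom (limma 3.58.1), a threshold of 0.05, the replicate number as a block, and each library left out. The members and all lists were chosen with earlier results of these data known. Named genes are all members, the 4 genes of each list with the smallest adjusted p, and cell type markers. Of 13 erythroid markers, 12 were found by symbol and are reported. Another 2 are not reported here, so that the counts and sums given for that list leave them out and may not hold for the list as a whole. Upstream sequences are from RefSeq (GRCm38.p6). The ATAC-seq and qPCR data of the study were not used here.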

Additional observations from a re-analysis of the deposited data

How the results depend on the processing

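The 4 higher enzyme genes were called in each of the 8 settings that used all libraries at an adjusted p under 0.01, and no gene of the pathway changed direction past the test in any setting. With each library left out, edgeR and DESeq2 gave 0 to 4 higher enzyme genes, 0 to 10 higher and 0 to 2 lower genes in the 6 surrounding lists, and 0 to 2269 higher and 0 to 2475 lower genes in all. The values of 0 higher come from edgeR without either d2 library, where the smallest adjusted p of any gene was 0.0181 and 0.0172, and the lone d2 library is assumed to vary like the d4 libraries. DESeq2 gave 1049 higher and 730 lower without d2 replicate 1, 985 and 722 without d2 replicate 2, and 1248 and 1268 higher without d4 replicate 1 and d4 replicate 2. Without d4 replicate 2, both tools called 2 genes of the lists lower. Without a filter, there were 2901 higher and 2873 lower genes, and 1 lower in the lists. At an adjusted p under 0.05 there were 2991 higher and 2679 lower. The cause of these shifts was not tested.

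The replicate number as a block gave 7 higher enzyme genes, adding Alas1 (edgeR adjusted p = 0.00821), Alad (0.00954) and Ppox (0.00434) but not Urod (0.941), with 14 higher and 5 lower genes in the lists and 3478 higher and 3496 lower in all. The deviations of same-numbered libraries from their day's mean correlated across 14932 genes (r = 0.48). The paper describes the replicates as coming from independent differentiation experiments, but the labels do not say that a number marks a shared one. Whether the days are paired cannot be told from the labels, and the block was kept as an alternative.

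The Alas2 share at d4 of 73.2% was 51.6% from counts without division by length and 64.0% with the longest transcript as the length. With 2 libraries per day, p-values measure the spread between these libraries only, and the log2 fold changes of 0.58 to 0.64 in Alad, Alas1 and Ppox missed the adjusted threshold without the block, although the unadjusted 95% intervals of Alad and Ppox lay above 0.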
